A study of Homo sapiens with 24 samples.

Results

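Glycolysis and hypoxia genes are described here in cutaneous T cell lymphoma cells in which PRKCQ, the gene of protein kinase C theta, was knocked down. The 37 genes were chosen by symbol and comprise 24 genes of glucose uptake, glycolysis and lactate handling and 13 genes of oxygen sensing and the hypoxia response. Of these, 34 are among the 13025 genes of the vehicle table and all 37 are among the 58780 genes of the TPA table. ADM, SLC16A3 and CA9 are in the TPA table only.

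The cells were MyLa, a line labelled mycosis fungoides, and HuT 78, a line labelled Sézary syndrome. Each line carried a non-targeting control hairpin (NTC) or a hairpin against PRKCQ (shPRKCQ), and each was given DMSO or the phorbol ester TPA at 10 ng/ml for 24 h. That makes 8 groups of 3 libraries, 24 in all, which the labels call independent replicates. Doxycycline at 1 µg/ml for 72 h or more induced the knockdown. Whether NTC cells also received doxycycline is not given in the sources used here, so doxycycline and hairpin cannot be told apart. How many hairpins or clones were used is not stated in the labels either. Each comparison pooled the lines, with 6 knockdown and 6 control libraries, and the 2 tables share no library. No value per library was used, so depth, expression levels and differences between the lines are not described. For the same reason the T cell identity of the lines could not be checked against levels of marker genes. PRKCQ stood at 23.1% of the NTC level in DMSO and 23.7% in TPA, computed from the authors' deposited tables (authors' adjusted p = 5.61e-14 and 1.67e-15).

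Glycolysis converts glucose to pyruvate in the cytosol, and proliferating and activated T cells send much of that pyruvate to lactate even when oxygen is present. Most enzymes of the pathway are also transcriptional targets of hypoxia-inducible factor (HIF). When oxygen is plentiful, prolyl hydroxylases of the EGLN family mark the HIF alpha subunit for destruction; when oxygen is low, or when antigen receptor signals raise HIF alpha, the factor binds short sequences in promoters and enhancers and induces glycolytic, mitophagy and angiogenic genes. EGLN3 is itself such a target and so forms a feedback loop.

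The core HIF motif is ACGTG or GCGTG, searched on both strands, where it reads CACGT or CACGC. It overlaps the E-box CACGTG, which other factors also bind. RefSeq promoters (GRCh38.p14) were matched for 32 of the 37 genes by symbol; SLC2A3, SLC16A1, BNIP3L, VEGFA and NDRG1 had no entry. In the 250 bases before the annotated start, 37 of 62 member promoters (59.7%) held the motif, against 43.2% of all 35116 promoters. A match is a description of the letters and not evidence of binding. The stretches of 3 genes are shown: EGLN3 had the smallest p of the members in both treatments, BNIP3 had the largest fold change in DMSO with a wide error, and PGK1 is a glycolytic enzyme long used as an example of a HIF target. They are written 5′ to 3′ on the strand of the gene, with motif letters in capitals.
EGLN3 (chr14:33951075-33951324, minus strand): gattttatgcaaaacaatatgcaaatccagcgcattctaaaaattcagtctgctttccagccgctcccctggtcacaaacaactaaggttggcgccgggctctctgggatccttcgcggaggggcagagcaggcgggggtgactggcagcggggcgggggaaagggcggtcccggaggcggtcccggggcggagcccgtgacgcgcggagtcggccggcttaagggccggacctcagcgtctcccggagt
BNIP3 (chr10:131981924-131982173, minus strand): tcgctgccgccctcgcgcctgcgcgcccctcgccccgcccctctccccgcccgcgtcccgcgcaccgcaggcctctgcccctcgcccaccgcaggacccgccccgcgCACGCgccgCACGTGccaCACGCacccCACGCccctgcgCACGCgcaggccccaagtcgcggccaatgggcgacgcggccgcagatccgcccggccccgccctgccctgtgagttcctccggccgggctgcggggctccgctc
PGK1 (chrX:78103998-78104247, plus strand): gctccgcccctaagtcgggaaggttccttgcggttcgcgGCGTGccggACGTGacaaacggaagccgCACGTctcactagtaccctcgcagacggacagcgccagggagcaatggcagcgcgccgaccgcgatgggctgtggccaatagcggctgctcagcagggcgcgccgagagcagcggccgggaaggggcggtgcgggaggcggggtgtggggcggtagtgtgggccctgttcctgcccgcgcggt
BNIP3 holds 6 matches, counting both strands of its E-box, PGK1 holds 3 and EGLN3 holds 0 in this window.

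None of the glycolysis and hypoxia genes passed the authors' test in either treatment. A gene was called at an authors' adjusted p under 0.05. In DMSO 0 of 34 were called, where 0.108% of all 13007 genes tested were, and 1 had an unadjusted p under 0.05, against 3.04% of all genes. In TPA 0 of the 36 with an adjusted p were called, where 0.113% of 19417 genes were, and 1 had an unadjusted p under 0.05, against 3.99%. EGLN3 was that gene both times. The shares of 3.04% and 3.99% are below what a calibrated test would give without any effect. The authors' tests were thus conservative, which limits what the lack of calls says about the members. In bulk libraries such as these, fewer cells of a kind and less RNA per cell cannot be told apart.

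For most members the derived errors were small, and they apply to the average change over both lines. Opposite changes in the 2 lines would not be seen. A standard error (SE) was derived for each gene from its fold change and p-value in the authors' tables, and a 95% interval from it. In DMSO the interval lay within a 2-fold change in both directions for 32 of 34 genes, where 93.0% of all genes did; the 2 exceptions were BNIP3 and PFKFB4. It lay within a 1.5-fold change for 22 of 34, against 71.2% of all genes. In TPA 35 of 37 lay within 2-fold and 24 within 1.5-fold, against 81.7% and 54.6% of genes with a p-value. CA9 and ADM were outside 2-fold. BNIP3 and PFKFB4 were outside 2-fold in DMSO and inside it in TPA. The fold changes of the 2 treatments may not be on the same scale, so the TPA intervals may be too narrow as bounds. SLC16A1 is counted within both bounds in TPA, although its fold change there is too close to 0 for a reliable SE. The median SE of the members was 0.19 in each treatment.

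**Figure D1:**
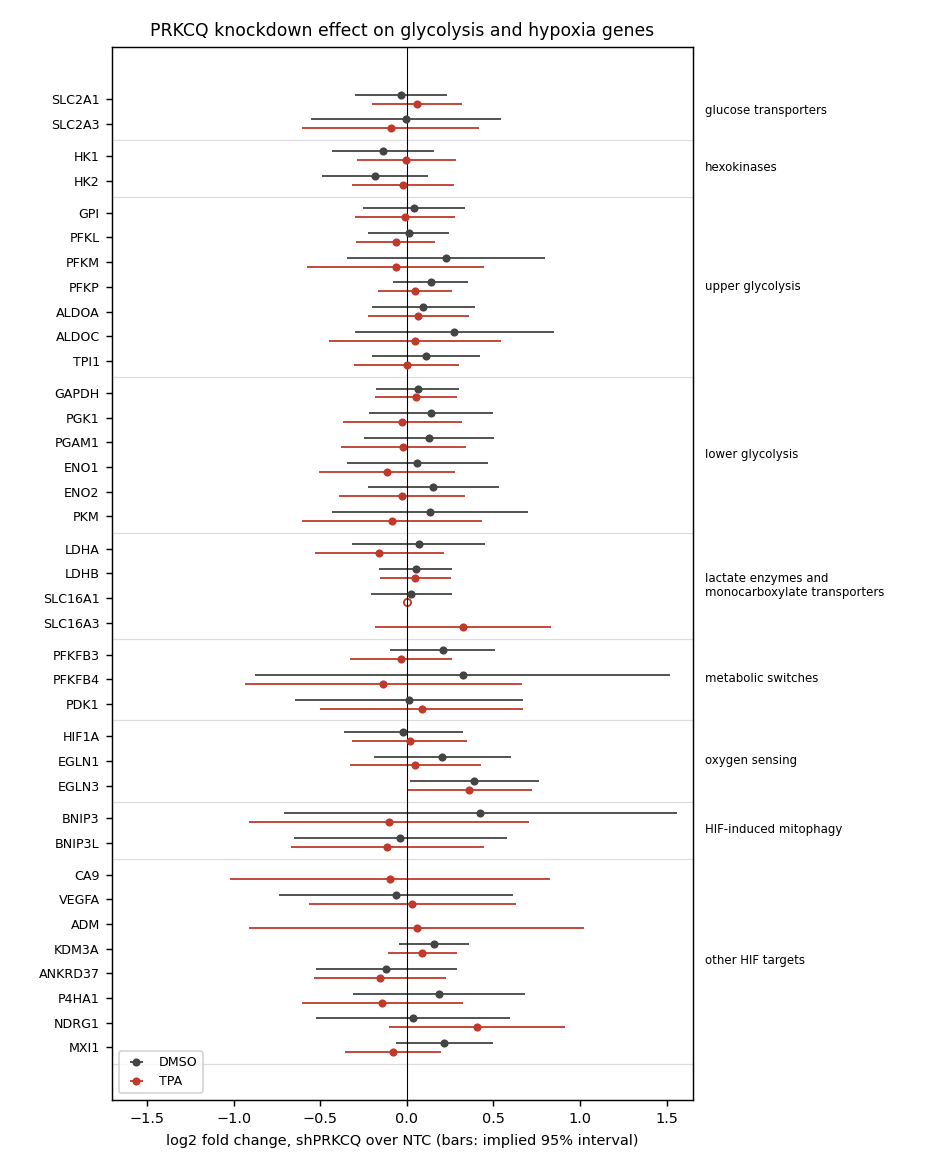
Log2 fold change of shPRKCQ over NTC cells (x axis) for each of the 37 genes (y axis, grouped by role), in DMSO (dark) and TPA (red); points are the authors' values from 6 against 6 libraries and bars the 95% interval derived from the authors' p. Only the intervals of EGLN3 exclude 0, in TPA barely; the open circle of SLC16A1 has no interval because its fold change is too close to 0 to derive one.

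Glucose enters T cells through the transporters GLUT1 and GLUT3, encoded by SLC2A1 and SLC2A3, and is trapped by the hexokinases. SLC2A1 had a log2 fold change ± SE of -0.034 ± 0.14 with vehicle (DMSO) and 0.059 ± 0.13 with TPA in the authors' deposited tables. SLC2A3 had -0.0040 ± 0.28 with vehicle and -0.093 ± 0.26 with TPA in the authors' deposited tables. For SLC2A1 the intervals, -0.30 to 0.23 and -0.20 to 0.32, leave room for only small changes of the average over both lines. HK1, the housekeeping hexokinase, and HK2, the inducible one, were the lowest of the pathway's enzymes in DMSO, at -0.14 and -0.18 in the authors' deposited table (p before adjustment = 0.352 and 0.236). With TPA they stood at -0.0025 and -0.022 in the authors' deposited table.

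The member enzymes from glucose phosphate to pyruvate were positive in DMSO, none of them called. All 7 upper enzymes, GPI, the 3 phosphofructokinase subunits PFKL, PFKM and PFKP, the aldolases ALDOA and ALDOC, and TPI1, were positive, from 0.011 for PFKL to 0.27 for ALDOC in the authors' deposited table, with a median of 0.11. All 6 lower enzymes, GAPDH, PGK1, PGAM1, ENO1, ENO2 and PKM, were positive too, from 0.060 for ENO1 to 0.15 for ENO2 in the authors' deposited table, with a median of 0.13. ENO3, a further enolase outside the member list, was negative, at -0.060 in the authors' deposited table (p before adjustment = 0.698), and at 0.14 in TPA. Over all genes tested in DMSO 52.3% were positive and the median was 0.0075. No enzyme came near the threshold: PFKP, the platelet-type phosphofructokinase, had the smallest unadjusted p of these genes in the authors' deposited table, 0.213, at 0.14 ± 0.11. GAPDH, often used as a reference gene, had 0.062 ± 0.12 with vehicle and 0.056 ± 0.12 with TPA in the authors' deposited tables. Transcripts of one pathway tend to vary together, so the shared sign is not that many independent observations.

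In TPA these enzymes were mixed in sign. Of the upper enzymes 3 of 7 were positive, with a median of -4.91e-04, and of the lower enzymes 1 of 6, GAPDH, with a median of -0.027. ENO1, the main enolase, was lowest of the enzymes, at -0.11 ± 0.20 in the authors' deposited table. PKM, the gene of the muscle-type pyruvate kinases, had 0.13 ± 0.29 with vehicle and -0.086 ± 0.27 with TPA in the authors' deposited tables, with no information on its splice forms.

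Lactate production and export showed no called change. LDHA, the lactate dehydrogenase subunit that favours lactate formation, had 0.068 ± 0.20 with vehicle and -0.16 ± 0.19 with TPA in the authors' deposited tables. LDHB, which favours the reverse reaction, was at 0.050 ± 0.11 in both of the authors' deposited tables. The proton-linked transporter SLC16A1 (MCT1) was at 0.027 ± 0.12 in DMSO in the authors' deposited table and at 5.53e-07 in TPA. SLC16A3 (MCT4), the hypoxia-inducible lactate exporter, was the third in order of p in TPA, at 0.33 ± 0.26 in the authors' deposited table (p before adjustment = 0.207, adjusted p = 1).

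Among the genes that set the flux, PFKFB4 and PDK1 were measured with wide errors. PFKFB3 and PFKFB4 encode enzymes that make and remove the activator of phosphofructokinase. PFKFB3 was at 0.21 ± 0.15 in DMSO (unadjusted p = 0.18, adjusted p = 0.9999) and -0.034 ± 0.15 with TPA in the authors' deposited tables. PFKFB4 had 0.32 ± 0.61 with vehicle and -0.14 ± 0.41 with TPA in the authors' deposited tables. Its interval in DMSO ran from -0.88 to 1.52, so a 2-fold increase in that treatment was not excluded. PDK1, the kinase that blocks pyruvate entry into the citrate cycle under hypoxia, had 0.011 ± 0.34 with vehicle and 0.087 ± 0.30 with TPA in the authors' deposited tables.

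EGLN3 had the smallest p of all members in both treatments. It encodes the hypoxia-inducible HIF prolyl hydroxylase PHD3 and lies on chromosome 14 from 33924231 to 34462774 on the minus strand (GRCh38, GENCODE 29), a span in which SPTSSA is annotated on the same strand. Its level in shPRKCQ cells was 131% of NTC in DMSO and 128% in TPA, from log2 fold changes of 0.39 ± 0.19 and 0.36 ± 0.18 in the authors' deposited tables. The unadjusted p-values there were 0.0412 and 0.0499, and after the authors' adjustment over all genes they were 0.9999 and 1. Having an unadjusted p under 0.05 and a positive sign in both tables was a property of 43 of 13007 genes (0.331%), and EGLN3 was the 1 gene among the 34. The difference between its effects, TPA minus DMSO, was -0.029 ± 0.27, with an interval of -0.55 to 0.49. EGLN3 was thus positive by a like amount in both treatments, without a call in either. With z-values rescaled by their robust SD over every gene with a p-value, its TPA value would pass (adjusted p = 0.0042), but not with the SD taken over genes that have an authors' adjusted p (0.49).

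Its partners in oxygen sensing were closer to 0. EGLN1, the main oxygen sensor PHD2, had 0.21 ± 0.20 with vehicle and 0.050 ± 0.19 with TPA in the authors' deposited tables. HIF1A, the regulated subunit, had -0.020 ± 0.17 with vehicle and 0.016 ± 0.17 with TPA in the authors' deposited tables. HIF-1 alpha is controlled mainly through protein stability, which RNA does not show.

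The HIF target genes outside glycolysis gave no common direction. BNIP3 and BNIP3L are mitochondrial receptors for mitophagy. BNIP3 had the largest fold change of the 34 genes in DMSO, 0.42 ± 0.58 in the authors' deposited table, but its interval ran from -0.71 to 1.56, and in TPA it was at -0.10 ± 0.41. BNIP3L had -0.037 ± 0.31 with vehicle and -0.11 ± 0.28 with TPA in the authors' deposited tables. By contrast KDM3A, a HIF-induced histone demethylase, had the smallest SE of the 34 genes in DMSO and was at 0.16 ± 0.10 there and 0.090 ± 0.10 with TPA in the authors' deposited tables (p before adjustment = 0.132 and 0.374, adjusted p = 0.9999 and 1).

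MXI1, an antagonist of MYC, was at 0.22 ± 0.14 in DMSO (unadjusted p = 0.132, adjusted p = 0.9999) and -0.079 ± 0.14 with TPA in the authors' deposited tables. NDRG1, a stress and hypoxia gene, was near 0 in DMSO and the highest of the 37 genes in TPA: 0.035 ± 0.29 and 0.41 ± 0.26 in the authors' deposited tables (p before adjustment = 0.903 and 0.118, adjusted p = 0.9999 and 1). P4HA1, a collagen prolyl hydroxylase, had 0.18 ± 0.25 with vehicle and -0.14 ± 0.24 with TPA in the authors' deposited tables, and ANKRD37 was negative in both at -0.12 ± 0.21 and -0.16 ± 0.19. None of these values exceeded 2 SE.

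Secreted and surface targets of HIF were measured with wide errors. VEGFA, the angiogenic growth factor, had -0.063 ± 0.34 with vehicle and 0.032 ± 0.30 with TPA in the authors' deposited tables. ADM, the vasodilator peptide adrenomedullin, had 0.057 ± 0.49 with TPA in the authors' deposited table. CA9, a surface carbonic anhydrase used as a marker of hypoxia, was at -0.096 ± 0.47 in that deposited table of the authors, which gives it no adjusted p.

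Across the set, positive values were more frequent in DMSO than in TPA. In DMSO 26 of 34 genes (76.5%) were positive with a median of 0.082, against 52.3% and 0.0075 for all genes. In TPA 16 of 37 (43.2%) were positive with a median of -0.010, against 58.4% and 5.37e-04 for all genes with a p-value, or 53.0% and 0.011 for those with an adjusted p. Of the 34 genes in both tables, 15 were positive in DMSO and negative in TPA and 3 the reverse, while 11 were positive and 5 negative in both. SLC16A1 is counted as positive in TPA, and so in both, although its value there was only 5.53e-07. Across these 34 genes, which share cell lines and are not independent, the fold changes in DMSO and TPA gave Pearson's r as 0.089 and Spearman's rho as -0.057. Without EGLN3 they were -0.14 and -0.14 over 33 genes, so the sign of r rests on that gene. Over all 13007 genes r was 0.38 and rho 0.40. These correlations and counts are descriptions without a test.

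**Figure D2:**
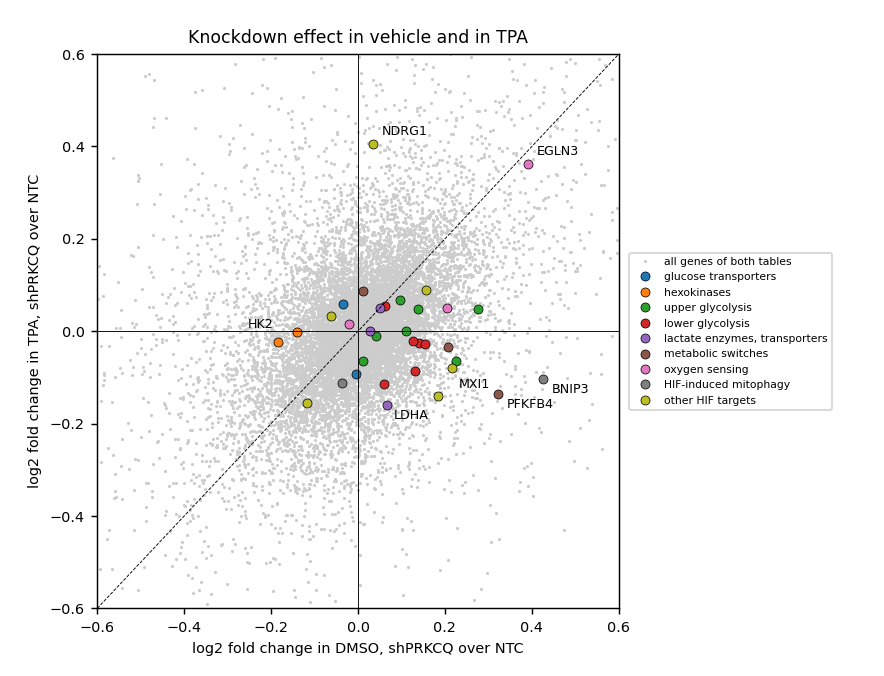
Log2 fold change of shPRKCQ over NTC cells in DMSO (x axis) and in TPA (y axis) for the 34 genes in both tables, coloured by role, over all genes of both tables (grey); the dashed line marks equal values and both axes are limited to 0.6 in each direction. EGLN3 sits near the line at 0.39 and 0.36, and most glycolysis genes lie below the line.

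The knockdown effect was lower in TPA than in DMSO for 27 of 34 genes (79.4%), where 52.5% of all genes were lower. The median difference, TPA minus DMSO, was -0.082 for the members and -0.0084 for all genes. This count is not separate from the signs in DMSO. There 26 of the 34 genes were positive, and in TPA the median of the same genes was -0.016. Subtracting the DMSO values thus gives mostly negative differences. The fold changes of the 2 treatments may also not be on the same scale. The list nearest in function, further genes of glycolysis and sugar entry, went the other way, with 5 of 14 lower (35.7%) and a median of 0.028. Lower values were held by 4 of 8 genes of the pentose phosphate pathway, 8 of 12 of pyruvate entry, 7 of 12 HIF subunits and regulators and 14 of 25 further HIF targets, with medians of 0.015, -0.028, -0.035 and -0.038. All 7 upper and all 6 lower glycolytic enzymes were on the lower side, with medians of -0.090 and -0.17, whereas both hexokinases were on the higher side, HK1 by 0.14 and HK2 by 0.16. In a test of the difference per gene, adjusted over all 13007 genes, 0 of the 34 passed, as did 0% of all genes. An unadjusted p under 0.05 was held by 0 of the 34, against 0.438% of all genes. That share is far below what a calibrated test would give without any effect. The test was therefore conservative, and its lack of calls says little about the members. With z rescaled by its robust SD, 0 of the 34 and 24 of the 13007 genes passed. MXI1 had the smallest p of the members, 0.144, for a difference of -0.29 ± 0.20. BNIP3 and PFKFB4 shifted furthest, by -0.53 ± 0.71 and -0.46 ± 0.73, both well within their errors. NDRG1 had the greatest upward shift, 0.37 ± 0.39. Thus no gene of the set was shown to respond differently to the knockdown in the 2 treatments.

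**Figure D3:**
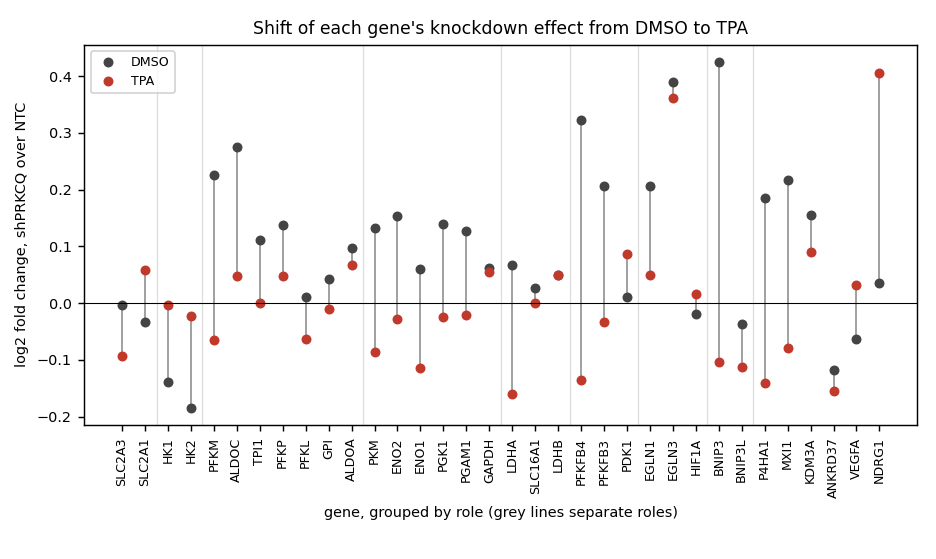
Log2 fold change of shPRKCQ over NTC cells (y axis) for each of the 34 genes in both tables (x axis, grouped by role), in DMSO (dark) and TPA (red), joined by a line per gene. The red point lies below the dark one for 27 of 34 genes, including all 7 upper and all 6 lower glycolytic enzymes. Of the dark points 26 lie above 0, so this count is not separate from the signs in DMSO. Errors are left out here and are wider than most of the shifts.

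Genes of neighbouring pathways are set beside the members without a test. In DMSO positive values were held by 5 of 14 further genes of glycolysis and sugar entry (median -0.056), 2 of 8 genes of the pentose phosphate pathway (median -0.044) and 7 of 12 genes of pyruvate entry into mitochondria (median 0.028). Of 12 HIF subunits and regulators 6 were positive (median 0.013) and of 25 further HIF targets 11 (median -0.0024). None of these genes was called. In TPA the same lists had 16 of 30, 4 of 8, 8 of 13, 7 of 14 and 11 of 32 genes positive, with medians of 0.012, -0.025, 6.37e-04, 0.0037 and -0.060, and again 0 calls.

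PFKFB2, a further enzyme of the family that sets the phosphofructokinase activator, had the smallest p of these neighbours in DMSO. It was at -0.57 ± 0.18 in the authors' deposited table (p before adjustment = 0.00191, adjusted p = 0.415), opposite in sign to PFKFB3 and PFKFB4, and at -0.15 ± 0.18 in TPA. BSG, the chaperone of the lactate transporters, had -0.20 ± 0.11 with vehicle and -0.13 ± 0.11 with TPA in the authors' deposited tables. HMOX1, heme oxygenase, had the smallest p of the neighbours in TPA, at -0.83 ± 0.27 in the authors' deposited table (p before adjustment = 0.00218, adjusted p = 0.382). NT5E, the ecto-enzyme CD73, had -0.71 ± 0.35 with TPA in the authors' deposited table. PGD, an enzyme of the pentose phosphate pathway, had -0.12 ± 0.082 with vehicle and -0.18 ± 0.081 with TPA in the authors' deposited tables (p before adjustment = 0.151 and 0.0303).

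Values of the remaining neighbours lay within 2 SE of 0. EPAS1, the HIF-2 alpha gene, had -0.42 ± 0.29 with vehicle and 0.015 ± 0.22 with TPA in the authors' deposited tables, and P4HA2 had -0.32 ± 0.27 and -0.19 ± 0.25. PC, pyruvate carboxylase, had -0.42 ± 0.28 with vehicle and 0.18 ± 0.26 with TPA in the authors' deposited tables. FBP1, a gluconeogenic phosphatase listed only for TPA, was at -0.60 ± 0.32 in the authors' deposited table (p before adjustment = 0.0599). Positive values were found as well. In DMSO RPE had 0.18 ± 0.19, FAM162A 0.17 ± 0.17, CUL2 0.12 ± 0.12 and MPC2 0.072 ± 0.12 in the authors' deposited table. With TPA the hexokinase HK3 had 0.67 ± 0.42, HIF3A 0.32 ± 0.45 and H6PD 0.19 ± 0.18 in the authors' deposited table, while DLD had -0.083 ± 0.12 and EP300 -0.12 ± 0.084.

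Several members have pseudogenes named after them, and reads may have been divided where the copies are alike. Their sequences were not compared. GENCODE names 147 pseudogenes after 16 of the 37 genes, 62 of them after GAPDH, 39 after BNIP3 and 13 after PGAM1. Of these, 9 had a p-value in DMSO and 80 in TPA, with 0 under 0.05 before adjustment in either. In addition 19 of the 37 genes share part of their span with another gene on the same strand, PGK1 with ATP7A among them. Markers of other cell types gave no call: B cell, myeloid, and epithelial or stromal lists had 2 of 3, 1 of 1 and 1 of 1 genes positive in DMSO and 5 of 7, 6 of 7 and 4 of 7 in TPA. The smallest p among them was that of CD79B, at -1.10 ± 0.33 with TPA in the authors' deposited table (adjusted p = 0.217). KRT5, a keratin, was positive there at 0.77 ± 0.38 (p before adjustment = 0.0437) in the authors' deposited table. T cell markers had 2 of 4 positive in DMSO and 9 of 10 in TPA, medians -0.014 and 0.16, also with 0 calls. CD5, a T cell surface receptor, had 0.56 ± 0.23 with TPA in the authors' deposited table (p before adjustment = 0.0167). The part of any of these in the members' values was not tested.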

How the data were processed

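RNA sequencing libraries were strand-specific and poly(A)-selected, per the labels' protocols. DESeq2 1.18.1, RSEM 1.3.0, STAR 2.5.3a and the build GRCh38 are named, without their roles, in the submitters' processing notes. Neither the model nor a shrinkage of effects is stated there. Per the file headers, the authors deposited 2 tables that give each gene its p-value, raw and adjusted, and its log2 fold change. Direction was read from PRKCQ, which is negative in both. The deposited adjusted p-values match a Benjamini-Hochberg adjustment to within a relative 0.00235 in DMSO and 0.00451 in TPA. Depth is unknown and no count test was run.

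From each p-value a two-sided normal z was computed, and an implied SE as fold change over z. This assumes that the p tests the deposited fold change. In TPA 2910 genes share 1 fold change, while in DMSO at most 2 genes share one. Every member measured in both treatments had a smaller implied SE in TPA. The gap was widest for PFKFB4 (0.61 in DMSO, 0.41 in TPA) and BNIP3 (0.58 and 0.41). Shrinkage of the TPA values is thus possible, but was not tested. The fold changes of the 2 treatments may therefore not be on the same scale, and comparisons between them make no correction for this. Near 0 the SE is unreliable (SLC16A1 in TPA is counted but given no interval). Effects were compared between tables as a difference over the combined SE, taking the tables as independent, and adjusted over 13007 genes. The calculation was run on simulated data with independent normal values and exact SEs. That checks the arithmetic and not how the test behaves on these data. Members and lists were chosen with earlier results of these data known. Named in full were members with an unadjusted p under 0.05 and the 4 smallest p per table; of the neighbouring lists (glycolysis and sugar entry, pentose phosphate, pyruvate entry, HIF regulators, HIF targets), the 2 smallest p per table were eligible. Calculations ran in Python 3.11.15 with pandas 2.3.3, scipy 1.17.1 and numpy 2.4.6.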

Additional observations from a re-analysis of the deposited data

How the results depend on the processing

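No paired analysis was possible because both tables summarise the libraries of a hairpin as 1 fold change per gene; left-out replicates were not run for the same reason. The counts of 0 called members in DMSO and in TPA held at adjusted p under 0.01 and under 0.1, when a log2 fold change of at least 1 in size was also required, and with an adjustment over every gene with a p-value. The count of 0 for the difference held at adjusted p under 0.1 and with the difference of z-values. Dividing z by its robust SD over all genes left 0 in DMSO and for the difference. In TPA the same step gave 2 members, EGLN3 (adjusted p = 0.0042) and NDRG1 (adjusted p = 0.0361), and called 6.45% of all 34024 genes. That SD, 0.505, is taken with 14607 genes that the authors gave no adjusted p. Over the 19417 genes that have one it is 0.84 and 0 members passed (EGLN3 adjusted p = 0.49, NDRG1 0.729), an alternative chosen after seeing the data. At an unadjusted p under 0.01, 0 members were left in each treatment. The DMSO median of 0.082 ranged from 0.074 to 0.082. The TPA median of -0.010 was -0.016 over members in both tables and 0.012 as a weighted mean, a change of sign around 0. In that weighted mean SLC16A1 had the largest weight, through an SE that is unreliable. Among the other lists, the rescaling over genes with an adjusted p would call PFKFB2 in DMSO (adjusted p = 0.00826) and HMOX1 and CD79B in TPA (adjusted p = 0.046 and 0.0176).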
